A study of Mus musculus with 6 samples.

Results

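The 9 genes examined here belong to the major histocompatibility complex (MHC) class I pathway, measured in natural killer (NK) cells: the heavy chain genes H2-K1, H2-D1, H2-T23 and H2-Q7, the light chain gene B2m, the peptide loading genes Tap1, Tap2 and Tapbp, and the class I transactivator gene Nlrc5. They were taken by symbol from a table of 11717 genes, in which all 9 were listed, and all 9 passed the filter on low values that left 11343 genes for testing. The RNA was that of purified NK cells of C57BL/6 spleens. All mice carried an IL-15 transgene (IL-15Tg), which supplies the cytokine that NK cells need to survive, so neither group shows cells without it. One group of 3 libraries came from IL-15Tg WT mice and the other group of 3 from IL-15Tg-Xbp1s cKO mice, a conditional knockout directed at Xbp1s, the spliced, active form of a transcription factor of the unfolded protein response. The promoter of the transgene, the Cre line, the ages of the mice and whether animals were pooled were not stated in the sources used here. The labels do not say if each library had a mouse of its own, and so p-values reflect the spread among these libraries, which may be technical. The comparison made was of class I pathway transcripts between the genotypes.

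A class I molecule is a heavy chain folded around a peptide and bound to beta-2 microglobulin, the product of B2m. Peptides cut by the proteasome are pumped into the endoplasmic reticulum by the transporter formed by TAP1 and TAP2, and tapasin, the product of Tapbp, holds the empty heavy chain at that transporter until a peptide fits. NLRC5 switches on transcription of many of these genes by assembling on a promoter module with RFX and NF-Y factors. NK cells read class I on other cells, and on themselves, through inhibitory receptors: Ly49 receptors bind the classical molecules encoded by H2-K1 and H2-D1, and the CD94-NKG2A pair binds Qa-1, encoded by H2-T23. H2-Q7 encodes a Qa-2 antigen.

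The heavy chain genes are near copies of each other, and the reads were 50 bases long. Stretches of 50 bases from the exon that encodes the alpha 3 domain, the part of the heavy chain near the membrane, are shown first because a read from there cannot be assigned to one gene. They come from GENCODE M21 transcripts on build mm10, with capitals for bases that differ from H2-K1, and in this stretch there were 0 differences in any of the 5 genes. The stretch lies at chr17:33997464-33997513 (minus strand) in H2-K1, chr17:35265831-35265880 (plus) in H2-D1, chr17:35442314-35442363 (plus) in H2-Q7, chr17:35427911-35427960 (plus) in H2-Q6 and chr17:36031001-36031050 (minus) in H2-T23.
H2-K1: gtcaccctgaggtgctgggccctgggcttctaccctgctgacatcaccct
H2-D1: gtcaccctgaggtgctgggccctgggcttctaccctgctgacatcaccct
H2-Q7: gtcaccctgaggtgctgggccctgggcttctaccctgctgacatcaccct
H2-Q6: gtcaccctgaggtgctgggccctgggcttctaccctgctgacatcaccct
H2-T23: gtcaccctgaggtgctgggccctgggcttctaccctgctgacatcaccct

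The exons of the alpha 1 and alpha 2 domains, which form the peptide groove, differ more between the copies, and a stretch of the alpha 1 exon is shown as an example. The stretch of 50 bases of that exon with the most differences from H2-K1, summed over the genes shown, lies at chr17:33999758-33999807 (minus) in H2-K1, chr17:35263575-35263624 (plus) in H2-D1, chr17:35439648-35439697 (plus) in H2-Q7, chr17:35425304-35425353 (plus) in H2-Q6 and chr17:36032177-36032226 (minus) in H2-T23. It differs from H2-K1 at 7 bases in H2-D1, 11 in H2-Q7, 10 in H2-Q6 and 12 in H2-T23, which are in capitals.
H2-K1: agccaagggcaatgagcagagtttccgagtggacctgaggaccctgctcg
H2-D1: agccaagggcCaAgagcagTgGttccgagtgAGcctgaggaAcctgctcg
H2-Q7: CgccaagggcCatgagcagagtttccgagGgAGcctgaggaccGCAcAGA
H2-Q6: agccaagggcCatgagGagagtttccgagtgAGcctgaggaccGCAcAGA
H2-T23: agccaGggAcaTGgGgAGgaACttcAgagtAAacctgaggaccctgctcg

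Over whole exons, H2-D1 matched H2-K1 at 91.1% of the 270 bases of the alpha 1 exon, 88.0% of the 276 bases of the alpha 2 exon and 96.0% of the 276 bases of the alpha 3 exon. H2-T23 matched H2-K1 at 86.7%, 70.7% and 95.3% of the same exons. H2-Q6 and H2-Q7 matched each other at 93.0%, 94.9% and 99.3%. Of all distinct stretches of 50 bases in the transcripts of a gene, 90.4% were found in no other gene for H2-K1, 87.2% for H2-D1, 85.5% for H2-T23 and 73.6% for H2-Q7. B2m had no stretch in common with another gene, and Nlrc5 and Tap1 were unique at 99.7% and 96.7% of theirs. Tap2 was unique at 88.4% and Tapbp at 76.8%, where most of the rest lay in a gene model on the opposite strand of the same bases, Gm15821 for Tap2 and Gm19412 for Tapbp. Gm19412 was listed at a mean of 2.03 CPM (counts per 1000000 reads) in WT and 1.85 in cKO, and without strand its reads cannot be told from those of Tapbp. Levels of the H2-Q genes and of H2-T10 and H2-T22 are the least certain of the heavy chains, because how the authors' counting divided shared reads was not stated in the sources used here.

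**Figure D1:**
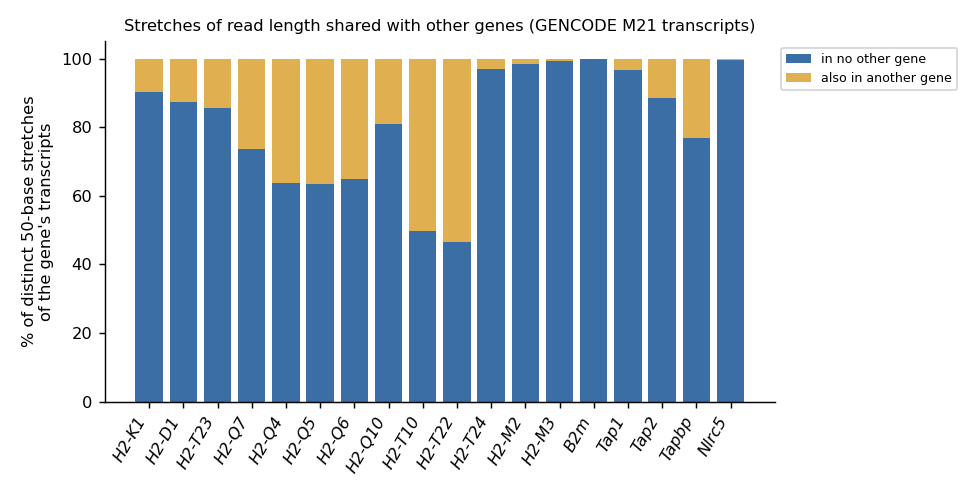
Share of the distinct stretches of 50 bases in each gene's transcripts (vertical axis, %) that are found in no other gene (blue) or also in another gene (yellow), for the 13 listed H2- heavy chain genes, B2m, the loading genes and Nlrc5. H2-T22 is unique at 46.5% and B2m at 100%.

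The promoters of the members share short elements, and promoter sequence was not used to choose the genes. Windows of 250 bases before the transcription start were matched by symbol for 7 of the 9 genes, from RefSeq on GRCm38.p6 (the same build as mm10). Those of the heavy chains and of B2m are shown because these chains form the molecule. Capitals mark 3 motifs, searched on both strands. CCAAT is the NF-Y element (ATTGG on the other strand) and GGGNNTTCC a core of NF-kappaB sites. GAAANNGAA is a form of the core of an interferon-responsive IRF site. The windows lie at chr17:34000348-34000597 (minus) for the first of the H2-K1 starts listed, chr17:35262844-35263093 (plus) for H2-D1, chr17:35438905-35439154 (plus) for H2-Q7, chr17:36032702-36032951 (minus) for H2-T23 and chr2:122147437-122147686 (plus) for B2m.
H2-K1: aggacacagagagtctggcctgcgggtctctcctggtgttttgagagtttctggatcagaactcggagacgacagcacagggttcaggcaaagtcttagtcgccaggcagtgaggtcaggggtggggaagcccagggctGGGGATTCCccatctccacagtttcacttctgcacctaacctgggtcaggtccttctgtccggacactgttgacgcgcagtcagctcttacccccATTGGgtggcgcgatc
H2-D1: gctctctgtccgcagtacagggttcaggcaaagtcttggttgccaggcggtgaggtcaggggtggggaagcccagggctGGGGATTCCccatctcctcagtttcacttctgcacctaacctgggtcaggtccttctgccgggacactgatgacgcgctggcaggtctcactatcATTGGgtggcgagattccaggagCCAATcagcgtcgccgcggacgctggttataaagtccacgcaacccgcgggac
H2-Q7: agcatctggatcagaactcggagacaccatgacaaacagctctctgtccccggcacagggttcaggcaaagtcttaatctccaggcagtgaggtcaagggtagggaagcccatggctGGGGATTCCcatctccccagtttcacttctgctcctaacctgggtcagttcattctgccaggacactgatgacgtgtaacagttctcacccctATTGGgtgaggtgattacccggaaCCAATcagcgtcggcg
H2-T23: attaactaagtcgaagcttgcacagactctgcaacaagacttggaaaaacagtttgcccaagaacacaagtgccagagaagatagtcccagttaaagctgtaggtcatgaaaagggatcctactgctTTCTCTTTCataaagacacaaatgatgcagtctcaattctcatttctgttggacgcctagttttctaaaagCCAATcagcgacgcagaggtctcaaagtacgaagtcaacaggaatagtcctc
B2m: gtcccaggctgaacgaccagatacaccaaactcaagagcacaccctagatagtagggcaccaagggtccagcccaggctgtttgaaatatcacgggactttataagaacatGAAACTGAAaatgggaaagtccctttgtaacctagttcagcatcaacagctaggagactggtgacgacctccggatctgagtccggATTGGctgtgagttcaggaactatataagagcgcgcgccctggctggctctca

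CCAAT was found in 7 of the 7 promoters, against 33.9% of all 32851 promoter windows in the table. The IRF core was found in 2, B2m and H2-T23, against 7.13% of all windows. The NF-kappaB core was found in H2-K1, H2-D1 and H2-Q7, as GGGGATTCC each time, against 4.98% of all windows. TGACG, a core bound by CREB and ATF proteins, was found in 5 of the 7, against 17.8%. ACGTG, the core of the element that XBP1s binds, was found in 1 of the 7, H2-Q7, where it overlapped TGACG, against 16.6% of all windows. CCACG, the end of the ER stress response element, was found in H2-D1 alone of the 7, against 28.3%. The windows of H2-K1, H2-D1 and H2-Q7 hold long runs of bases in common, so their matches are not independent of each other. The members were also chosen as a pathway whose known promoter module includes NF-Y. These matches describe letters in one window and do not show that a factor binds there.

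The libraries held 26297292 to 29366756 reads over the listed genes. Levels are in CPM, counts of a gene per 1000000 of these reads. Each member had between 3708 and 64155 reads in each library. For Xbp1, the targeted gene, WT libraries 1 to 3 read 42.9, 61.4 and 63.5 CPM and cKO libraries 1 to 3 read 35.1, 33.4 and 39.7 CPM. Whole-gene reads do not separate its spliced form. The libraries most alike in their reads belonged to opposite genotypes, WT library 1 with cKO library 2 (chi-square per degree of freedom 4.75) and WT library 2 with cKO library 1 (7.15), while the other pairs were at 14.5 to 42.3. All 12 NK cell markers were detected in every library, with a summed level of 10346 to 11735 CPM in WT and 9366 to 10598 CPM in cKO.

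Genotypes were compared with limma on log2(CPM + 0.5), with Benjamini-Hochberg adjustment over the 11343 genes and a threshold of 0.05. No gene passed, which is 0% of those tested, and so none of the 9 members did. Without adjustment, 133 genes had a limma p under 0.05, and no member was one of them. On recovered reads, edgeR (quasi-likelihood) called 0 genes as well (145 unadjusted), and DESeq2 called 6 (155 unadjusted), none of them a member. All 9 members had a fold change below 0, with a median log2 fold change of -0.081 and a range of -0.12 to -0.0027. Over all genes tested, 44.5% had a fold change below 0 and the median was 0.0087.

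The classical heavy chain genes carried most class I reads. H2-K1 (ENSMUSG00000061232.16, minus strand of chromosome 17, 33996017 to 34000347) had WT levels of 1928, 2244 and 2134 CPM and cKO levels of 2022, 1967 and 1952 CPM, each in the order of libraries 1, 2 and 3, which all lists of values keep. For H2-K1, WT libraries 2 and 3 were above every cKO library and WT library 1 was below every one, so the groups overlapped. The WT mean was 2102 ± 160 CPM and the cKO mean 1980 ± 36.8 CPM (SD, n = 3 each), and the log2 fold change -0.083 (95% confidence interval -0.28 to 0.11; limma, adjusted p = 1.0).

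H2-D1 (ENSMUSG00000073411.12, plus strand of chromosome 17, 35262730 to 35267499, the annotation holding an earlier version of this identifier) encodes the other classical chain of this strain. Its WT levels were 1730, 1935 and 1793 CPM and its cKO levels 1789, 1742 and 1713 CPM. Only WT libraries 2 and 3 exceeded every cKO library, and WT library 1 lay inside the cKO range. In log2, cKO minus WT was -0.056 (95% confidence interval -0.23 to 0.12; limma, adjusted p = 1.0).

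The class Ib chains followed with lower levels. H2-T23 (ENSMUSG00000067212.8, minus strand of chromosome 17, 36029773 to 36032855) had WT levels of 229, 260 and 228 CPM and cKO levels of 236, 220 and 221 CPM. WT library 2 stood above the other 5 libraries, and the remaining WT libraries were below cKO library 1. Its log2 fold change was -0.081 (95% confidence interval -0.24 to 0.078; limma, adjusted p = 1.0). H2-Q7 (ENSMUSG00000060550.16, plus strand of chromosome 17, 35439155 to 35443773) had WT levels of 581, 672 and 668 CPM and cKO levels of 575, 583 and 612 CPM, again with WT library 1 among the cKO values. Its log2 fold change was -0.12 (95% confidence interval -0.29 to 0.056; limma, adjusted p = 1.0), or -7.68%.

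B2m (ENSMUSG00000060802.8, plus strand of chromosome 2, 122147686 to 122153083), whose product every class I heavy chain needs to reach the surface, was the one member coded outside chromosomes 17 and 8. Its WT levels were 1326, 1401 and 1362 CPM and its cKO levels 1316, 1297 and 1159 CPM. All 3 cKO libraries were below all 3 WT libraries, and B2m was the single member of which this was true; the same held for 1.77% of all genes tested. The gap was narrow, since the exact binomial 95% intervals of the nearest libraries, WT library 1 (1313 to 1340 CPM) and cKO library 1 (1303 to 1330 CPM), overlapped. The WT mean was 1363 ± 37.4 CPM and the cKO mean 1258 ± 85.6 CPM (SD, n = 3 each), and the log2 fold change -0.12 (95% confidence interval -0.29 to 0.054; limma, adjusted p = 1.0), or -7.87%. By exact permutation over the 6 libraries (two-sided) p was 0.1, the lowest value that 3 against 3 can reach. Without cKO library 3, the lowest, the log2 fold change of B2m was -0.061.

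**Figure D2:**
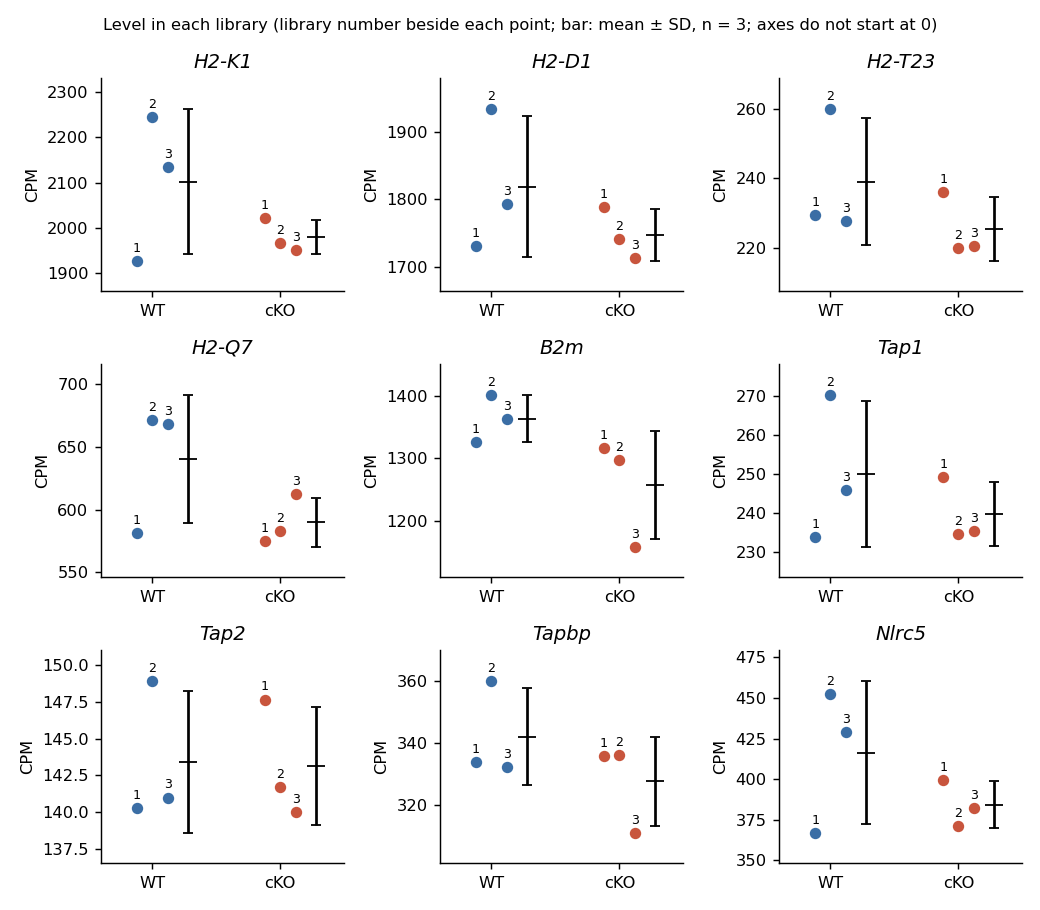
Level (CPM, vertical axis, a scale of its own for each gene that does not start at 0) in each WT (blue) and cKO (red) library, numbered by replicate, with the mean and SD over 3 libraries as a black bar. WT library 2 is the highest point in all 9 panels, and only in B2m do all cKO points lie below all WT points.

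The loading genes had log2 fold changes between -0.062 and -0.0027. Tap1 (ENSMUSG00000037321.17, plus strand of chromosome 17, 34187553 to 34197225) had WT levels of 234, 270 and 246 CPM and cKO levels of 249, 235 and 235 CPM. Tap2 (ENSMUSG00000024339.12, plus strand of chromosome 17, 34203527 to 34216321) had WT levels of 140, 149 and 141 CPM and cKO levels of 148, 142 and 140 CPM. For both transporter genes only WT library 2 was above every cKO library, and cKO library 1 was the second highest of the 6. The log2 fold change was -0.058 for Tap1 (95% confidence interval -0.21 to 0.096) and -0.0027 for Tap2 (95% confidence interval -0.12 to 0.11), and neither passed (limma, adjusted p = 1.0 for each). The sign of Tap2 turned under other scalings, to 0.0022 with quantile normalization and 0.0040 without the genes on ribosomal RNA repeats.

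Tapbp (ENSMUSG00000024308.15, plus strand of chromosome 17, 33915899 to 33929292) had WT levels of 334, 360 and 332 CPM and cKO levels of 336, 336 and 311 CPM. WT library 2 was the highest and cKO library 3 the lowest, and between them cKO libraries 1 and 2 were above WT libraries 1 and 3. In log2, cKO minus WT was -0.062 (95% confidence interval -0.20 to 0.073; limma, adjusted p = 1.0), and -0.025 without cKO library 3.

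Nlrc5 (ENSMUSG00000074151.13, plus strand of chromosome 8, 94434356 to 94527272) varied most of the loading and regulatory genes. Its WT levels were 367, 453 and 429 CPM and its cKO levels 400, 371 and 382 CPM. WT libraries 2 and 3 were above every cKO library and WT library 1 was the lowest of all 6. The WT mean was 416 ± 44.3 CPM and the cKO mean 384 ± 14.3 CPM (SD, n = 3 each), and the log2 fold change -0.11 (95% confidence interval -0.31 to 0.091; limma, adjusted p = 1.0). For the 8 members other than B2m, two-sided exact permutation tests gave p between 0.3 and 0.9.

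**Figure D3:**
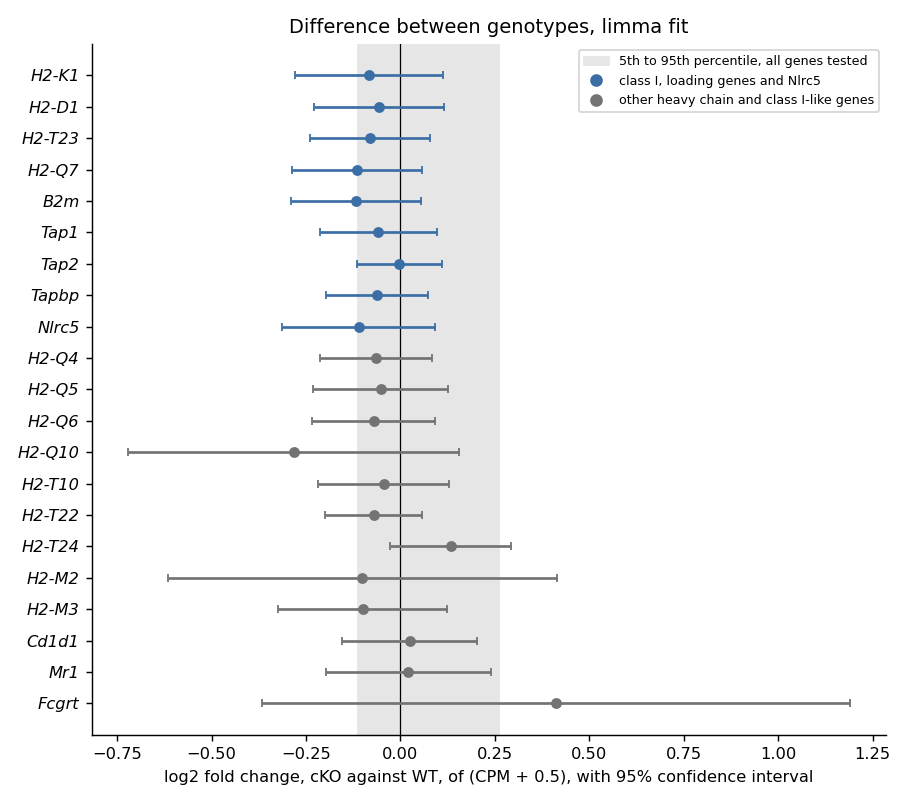
Log2 fold change of cKO against WT (horizontal axis, on the log2(CPM + 0.5) scale) with its 95% confidence interval from the limma fit for the 9 members (blue) and 12 other heavy chain and class I-like genes (grey), over the range from the 5th to the 95th percentile of all genes tested (-0.11 to 0.26, shaded). Every interval of the genes shown includes 0.

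Per kilobase of the exon length that the authors list, B2m stood highest, at 1585 ± 43.5 CPM per kilobase in WT and 1462 ± 99.5 in cKO (SD, n = 3 each). H2-K1 (715 ± 54.6 in WT) and H2-D1 (705 ± 40.7 in WT) came next with ranges over the 6 libraries that overlapped, and H2-Q7 followed with 135 to 158 CPM per kilobase over the 6 libraries. Tapbp (94.3 ± 4.33) and H2-T23 (82.7 ± 6.30) overlapped in range, as did Nlrc5 (49.0 ± 5.21) and Tap1 (45.7 ± 3.40), and Tap2 was lowest at 37.9 ± 1.27 CPM per kilobase in WT (SD, n = 3 each). All other neighbours in this order had ranges that did not overlap.

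The library with the highest level was the same for every member. All 9 were highest in WT library 2, where 11.5% of all genes tested had their highest level. Of the 9, 4 were lowest in cKO library 3 (B2m, H2-D1, Tap2 and Tapbp), where 18.0% of all genes had their lowest level, and 3 were lowest in WT library 1 (H2-K1, Tap1 and Nlrc5). The mean deviation of the 9 from their own means, in log2(CPM + 0.5), had WT values of -0.046, 0.13 and 0.034 and cKO values of 0.0015, -0.047 and -0.070. WT library 1 thus lay at the level of cKO library 2. Without WT library 2 the median log2 fold change of the 9 members was -0.025, with 8 below 0, and without WT library 1 it was -0.11, with 9 below 0.

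**Figure D4:**
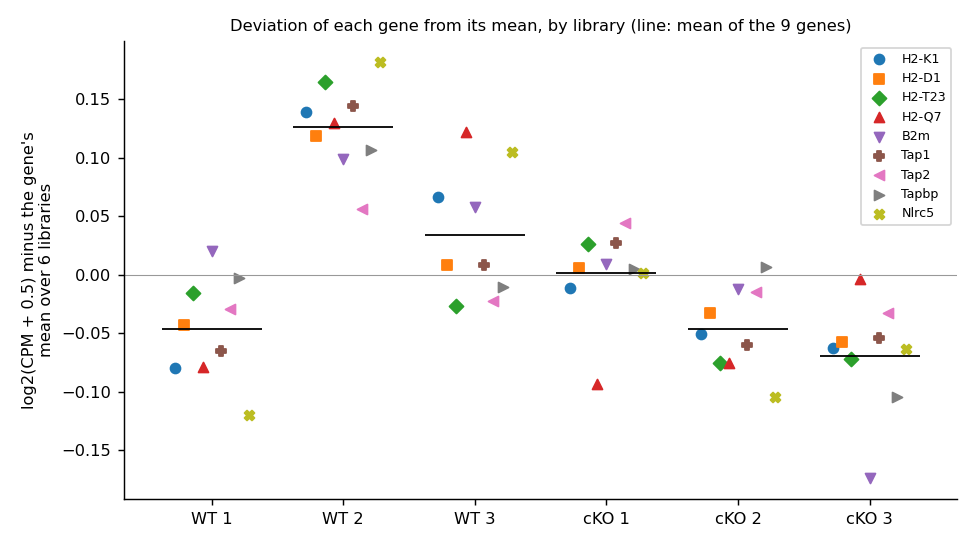
Deviation of each of the 9 genes from its own mean over the 6 libraries (vertical axis, log2(CPM + 0.5)), by library, with the mean of the 9 as a line. The line is highest in WT library 2 at 0.13 and lowest in cKO library 3 at -0.070, and WT library 1 and cKO library 2 are level at -0.046 and -0.047.

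The range of a member over the 6 libraries was 0.089 (Tap2) to 0.30 (Nlrc5) on the log2 scale, against a median range of 0.29 over all genes tested. That median includes genes of far lower level, down to the filter of 1 CPM, and no set of genes of like level was compared. The closest profiles were those of H2-D1 and Tap1, with a root mean square difference of 0.020 between their deviations, and the farthest were those of H2-Q7 and B2m, at 0.099. Of 9090 other genes with a mean of at least 10 CPM, those whose profile was nearest to the mean of the members were Znrf2, Ctsw, B4galnt1, H2-T22 and Bckdha, with root mean square differences of 0.014 to 0.017 over the 6 libraries. One of the 5, H2-T22, is itself a class Ib heavy chain gene.

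Of the 12 NK cell markers, 11 had a fold change below 0, with a median log2 fold change of -0.082. Their summed level was highest in WT library 2, at 11735 CPM, and lowest in cKO library 3, at 9366 CPM, the same libraries in which the mean of the members was highest and lowest. Among these markers Ncr1 fell furthest (log2 fold change -0.47), from a WT mean of 1305 ± 90.1 CPM to a cKO mean of 940 ± 51.4 CPM (SD, n = 3 each). The summed level had a mean of 11090 CPM in WT and 10178 CPM in cKO, so Ncr1 carried a large part of that difference. Erythroid markers, of which 8 of 9 were in the table, summed to 444 CPM in WT library 1 and 420 CPM in cKO library 2, against 132 to 198 CPM in the other 4 libraries. Most of these sums was Car1, at 353 CPM in WT library 1 and in cKO library 2 and at 109 to 167 CPM in the others. B cell markers, all 21 of which had a fold change above 0, summed to 1124 to 2017 CPM in WT and 1441 to 3004 CPM in cKO. Monocyte and macrophage markers (6 of 14 in the table, 6 with a fold change above 0) summed to 195 to 263 CPM in WT and 236 to 446 CPM in cKO. Of the dendritic cell markers, 10 of 11 were in the table and 9 of these had a fold change above 0, while their sum was 911 to 1057 CPM in WT and 881 to 939 CPM in cKO. Itgax, the 1 with a fold change below 0, made up most of that sum, at 745 to 921 CPM in WT and 716 to 761 CPM in cKO. No listed marker was at 0 in any library. B cells and macrophages also express class I genes, and the part of any of these cells in the levels of the members was not tested. In bulk RNA, fewer cells of a type and less RNA per cell cannot be told apart.

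Because reads can be split between copies, the H2- heavy chain genes were also summed. The 13 listed genes together had WT sums of 5805, 6569 and 6244 CPM and cKO sums of 5962, 5807 and 5908 CPM. The sum overlapped between genotypes, with WT library 1 below every cKO library. The WT mean was 6206 ± 383 CPM and the cKO mean 5892 ± 78.8 CPM (SD, n = 3 each), a difference of -5.06%. H2-Q6 and H2-Q7, taken as one, had a WT mean of 1294 ± 68.4 CPM and a cKO mean of 1214 ± 67.8 CPM (SD, n = 3 each). H2-K1 took 33.0% to 34.2% of the summed heavy chain reads in each library, H2-D1 at least 28.7%, H2-Q7 9.65% to 10.7% and H2-T23 3.64% to 3.96%. The ratio of the summed heavy chains to B2m, which also depends on the length of the transcripts, had WT values of 4.38, 4.69 and 4.58 and cKO values of 4.53, 4.48 and 5.10, so that cKO library 3 was above the rest.

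**Figure D5:**
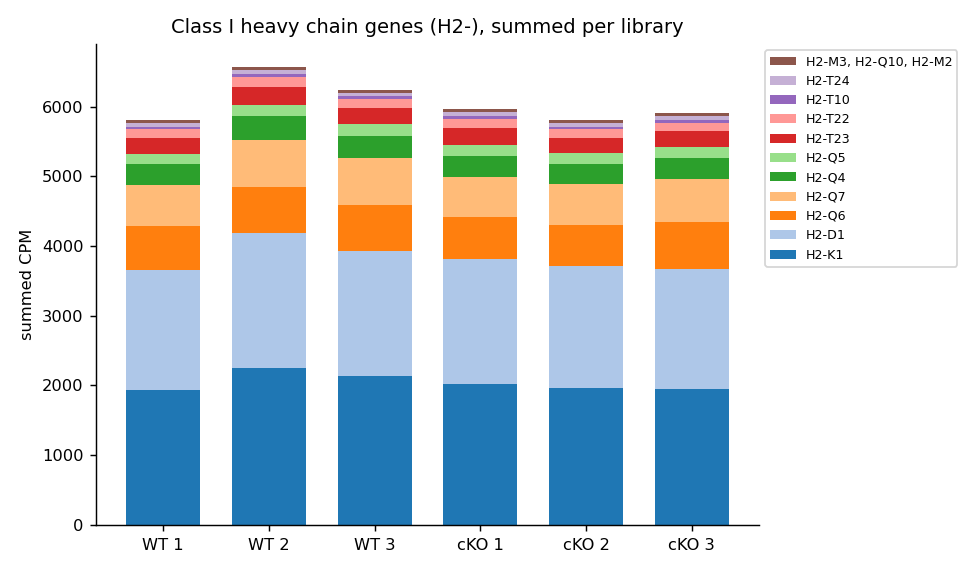
Summed CPM of the 13 listed H2- heavy chain genes (vertical axis, from 0), stacked by gene, for each library. The stack is tallest in WT library 2 at 6569 CPM and shortest in WT library 1 at 5805 CPM, with cKO libraries between 5807 and 5962 CPM.

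Other heavy chain and class I-like genes were listed for 12 of 29 symbols searched. None passed (limma), 8 had a fold change below 0 and 4 above, and the median log2 fold change was -0.058. H2-T24, a class Ib gene, had the smallest p of the list and a fold change above 0, with a WT mean of 49.9 ± 2.75 CPM and a cKO mean of 54.7 ± 2.91 CPM (SD, n = 3 each). H2-Q10, which encodes a secreted class I chain known from liver, had WT levels of 3.65, 4.79 and 3.61 CPM and cKO levels of 3.61, 2.53 and 3.53 CPM. Every cKO library was below every WT library by a margin under the value of 1 read, and H2-Q10 shares 14.0% of its stretches with H2-Q7. H2-T22 had a WT mean of 131 ± 5.95 CPM and a cKO mean of 125 ± 4.56 CPM (SD, n = 3 each).

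Genes that supply peptides or assist loading were near the members in direction. Of 18 symbols searched 17 were tested, of which 16 had a fold change below 0 and 1 above, with a median of -0.038, and none passed (limma). Pdia3, which encodes the disulfide isomerase ERp57 of the loading complex, had a WT mean of 283 ± 5.15 CPM and a cKO mean of 266 ± 14.6 CPM. Tpp2, a cytosolic peptidase, had WT levels of 177, 177 and 181 CPM and cKO levels of 171, 165 and 177 CPM, where the nearest libraries differed by less than 1 CPM. Bcap31, an export receptor of the endoplasmic reticulum, had a WT mean of 105 ± 3.64 CPM and a cKO mean of 100.2 ± 6.93 CPM (SD, n = 3 each). Of the immunoproteasome subunit genes, Psmb8 had a WT mean of 166 ± 17.1 CPM and a cKO mean of 168 ± 9.20 CPM, and Psmb9 had means of 77.1 ± 7.37 and 76.0 ± 3.17 CPM (SD, n = 3 each). Psmb10, added after its values were seen to complete these subunits, had means of 77.9 ± 4.97 and 74.7 ± 4.71 CPM (SD, n = 3 each), and all 3 were highest in WT library 2. The Psmb9 gene model overlaps the start of Tap1 on the other strand, and 163 of the 5652 stretches of 50 bases in Tap1 transcripts also lie in Psmb9 transcripts.

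Transcription factors that act on class I promoters were divided, with 11 of 19 above 0 and 8 below, a median of 0.0051 and none passing (limma). Irf3, which induces interferon genes, had WT levels of 101, 104 and 107 CPM and cKO levels of 95.3, 95.2 and 97.7 CPM, with no overlap between the groups (unadjusted p = 0.049 and adjusted p = 1.0 in limma); of all genes tested, 0.326% were lower in cKO at an unadjusted p under 0.05. Rfx5, the partner of NLRC5 in the promoter complex, had a WT mean of 57.0 ± 3.26 CPM and a cKO mean of 61.1 ± 1.65 CPM (SD, n = 3 each). All cKO libraries were above all WT libraries for Rfx5, and the same held for 2.55% of all genes tested. Ciita, the transactivator of class II genes, had a WT mean of 32.9 ± 3.96 CPM and a cKO mean of 56.7 ± 28.6 CPM (SD, n = 3 each), and it was highest in the cKO libraries with the most B cell marker reads, cKO libraries 1 and 3. Irf1, an activator of class I genes, had a WT mean of 307 ± 41.9 CPM and a cKO mean of 301 ± 22.9 CPM (SD, n = 3 each).

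Of the genes for interferon receptors, their kinases and their feedback inhibitors, 4 of 10 had a fold change above 0 and 6 below, with a median of -0.016. Ifngr2, a chain of the interferon gamma receptor, had WT levels of 8.38, 10.8 and 6.96 CPM and cKO levels of 15.8, 9.59 and 15.1 CPM, with cKO library 2 inside the WT range (unadjusted p = 0.041 and adjusted p = 1.0 in limma). Of the 11343 genes tested, 96 were higher in cKO at an unadjusted limma p under 0.05. The other chain, Ifngr1, had WT levels of 521, 535 and 799 CPM and cKO levels of 546, 533 and 607 CPM, and its log2 fold change of -0.11 turned to 0.088 without WT library 3. The kinase gene Jak1 had a WT mean of 1870 ± 79.1 CPM and a cKO mean of 1768 ± 77.8 CPM (SD, n = 3 each), and its fold change of -0.081 in log2 turned to 0.017 with quantile normalization.

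On the receptor side, 16 of 17 NK cell receptor genes, most of them for receptors of class I or class I-like molecules but with the CD48 receptor gene Cd244a among them, had a fold change below 0, with a median of -0.096 and none passing (limma). The Ly49 gene Klra6 had WT levels of 13.6, 15.4 and 17.0 CPM and cKO levels of 12.2, 12.2 and 11.4 CPM, without overlap (unadjusted p = 0.016 and adjusted p = 1.0 in limma). Klra6 had the smallest p of the 17. In 3 of them (Klra4, Klra6 and Klrd1) every cKO library was below every WT library, as in 1.77% of all genes tested. Lower levels in cKO at an unadjusted limma p under 0.05 were found for 0.326% of all genes tested. Klra8, the Ly49H receptor gene, had a WT mean of 530 ± 19.9 CPM and a cKO mean of 489 ± 21.4 CPM, and Klra3 means of 112 ± 19.8 and 93.4 ± 5.07 CPM (SD, n = 3 each). Of the 17 genes, 7 were highest in WT library 2, where 11.5% of all genes tested had their highest level. Klra5, Klra6, Klrc1, Klrc2, Klrk1, Lilrb4a, Cd160 and Cd244a were highest in WT library 3 instead. Over all genes tested, 18.6% were highest in WT library 3.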

How the data were processed

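Per the labels, KAPA Hyper Prep libraries were sequenced as single reads of 50 bp (HiSeq2500). Build mm10, HISAT2, HTSeq and DESeq2 stand in the submitters' processing notes with no version, and the settings and use of strand were not stated there. The table is called RPKM, but its deposited values are CPM: each column sums to 1000000 and 100% of values are multiples of 1 read, to within 0.01 reads, from which read counts were recovered. Depth is therefore reads over the listed genes.

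The planned design assumed RPKM, and the same test was used for CPM. Genes reaching 1 CPM in 3 or more libraries were fitted on log2(CPM + 0.5), a scale that understates changes of low genes, with limma 3.58.1 in R 4.3.3 (intensity trend, genotype as the single term). Recovered reads were tested with edgeR 4.0.16 and DESeq2 1.42.0. The limma fit reported, edgeR and DESeq2 were tested on simulated data, with changes far larger than those of the members. The alternative settings of limma were not tested in this way. No pair of libraries agreed within sampling noise. Coordinates are from GENCODE M21, and 16 symbols were replaced through identifiers. Exon lengths are the authors'. Intervals on CPM cover counting error only. Named genes are the members, the 3 of smallest p in each list with 5 fixed genes, and the 5 of nearest profile; 1 gene that this rule names is not reported here. The marker genes Ncr1, Itgax and Car1 were named after their values were seen. The members and lists were chosen with earlier results of these data known.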

Additional observations from a re-analysis of the deposited data

How the results depend on the processing

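The count of genes passing the limma test was 0 in the analysis reported and in every alternative except library weights and DESeq2 on the recovered reads, each with 6 genes and no member among them. The median log2 fold change of the 9 members stayed below 0 under all 18 alternatives, from -0.11 without WT library 1 to -0.025 without WT library 2. The summed heavy chain level also stayed below 0 under the 9 run for it, from -0.12 to -0.032. With library weights, 3 members (H2-Q7, Nlrc5 and H2-K1) had an unadjusted p under 0.05, and the smallest adjusted p of a member was 0.12. Without WT library 1, 2 members had an unadjusted p under 0.05 and the smallest adjusted p was 0.99. B2m had the most negative fold change of the members as reported, at -0.12, but H2-Q7 had it with edgeR, DESeq2, library weights and quantile normalization and without cKO library 3, and Nlrc5 without WT library 1. Tap2 changed sign, to 0.00054 with library weights, 0.0022 with quantile normalization and 0.0040 without the 2 genes on ribosomal RNA repeats, and ranged from -0.025 to 0.025 when single libraries were left out. No other member changed sign. Among the other genes named, Jak1 was at 0.017 with quantile normalization and Psmb8 at -0.011 with library weights. Leaving out single libraries gave -0.22 to 0.088 for Ifngr1, -0.12 to 0.076 for Irf1, -0.034 to 0.10 for Psmb8 and -0.065 to 0.058 for Psmb9. The cause of these changes was not tested. With the replicate block 0 genes were called. The shared numbers did not pair the samples: deviations of same-numbered libraries correlated at -0.17, -0.51 and 0.48, while WT library 1 with cKO library 2 gave 0.59 and WT library 2 with cKO library 1 gave 0.65. The standard errors of the members in the limma fit were 0.047 (Tap2) to 0.084 (Nlrc5), against a median of 0.096 over all genes. At these errors the changes of the members could not be told from 0.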
